A study of Mus musculus with 8 samples.

Results

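The genes examined here control how RNA polymerase II leaves the promoter-proximal pause and enters productive elongation. They are Hexim1, Cdk9, Ccnt1, Ccnt2, Larp7, Ell, Ell2, Supt5h and Aff4, and every array probe carrying one of these names was taken. The array design held 11 such probes among 55681 non-control probes. They represented 8 of the 9 names, since no probe was named Supt5h. The same gene is present as Supt5, the symbol RefSeq now gives it, and its probe is reported beside the others without being counted with them. All 11 probes were well above background on all 8 arrays, so none was lost to the filter that left 30859 probes for testing.

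Pausing is released by P-TEFb, a kinase made of Cdk9 and a cyclin T, which phosphorylates the polymerase tail and the factors that hold it. A large share of P-TEFb in the cell is kept inactive in a small ribonucleoprotein built on the 7SK RNA, where Larp7 protects the RNA and Hexim1 inhibits the kinase. Hexim1 is named after its induction by hexamethylene bisacetamide, and its RNA has been used as a readout of P-TEFb release. Active P-TEFb joins Ell, Ell2 and the scaffold Aff4 in the super elongation complex. In fibroblasts, many immediate early genes that serum switches on are regulated at this step.

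The data came from NIH3T3 cells, an immortalised mouse embryonic fibroblast line, kept in 0.5% newborn bovine serum for 24 h. The cordycepin plus serum group (3 arrays) received 20 µM cordycepin in DMSO, followed after 60 min by 0.1 volume of serum for a further 30 min. Cordycepin, or 3′-deoxyadenosine, lacks the 3′ hydroxyl that adenosine offers for extension of an RNA chain. The serum group (3 arrays) received 0.1% DMSO followed by serum in the same way, and the no serum group (2 arrays) was left without serum. All groups shared the cell line, the starvation and, per the labels, the vehicle, and no array held cells given cordycepin without serum. The labels number the arrays of each group as replicates of a single line, so p-values measure the spread between these replicates.

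Total RNA was taken for 1-colour labelling, and the labelled material was hybridised to Agilent arrays. Values are log2 signals from which the 75th percentile of that array was subtracted. The raw 75th percentile ranged from 350 to 802 between arrays, 51.1 to 57.1% of probes were well above background, and no spot was saturated. Across probes, Pearson's r was 0.992 to 0.995 within groups, 0.965 to 0.976 for pairs holding 1 cordycepin array, and 0.986 to 0.992 between the serum and no serum arrays. All 8 fibroblast markers examined were bright, with group means between 3.90 and 9.27 on the log2 scale, and none changed. Of the leukocyte markers, Ptprc was well above background on 1 array of each group, and Cd3e (0.13, adjusted p 0.672) and Itgam were measurable. The brightest of 3 Itgam probes was higher with cordycepin by 0.63 ± 0.15 (SE, adjusted p 0.0219), and the others were not (adjusted p 0.367 and 0.681). The summed signal of these 3 markers, almost all from the brightest Itgam probe, was 20.4 to 25.5 with cordycepin, relative to the 75th percentile. It was 14.2 to 16.1 with serum and 12.9 to 17.2 without serum, and its part in the changes below was not tested.

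The first question was whether cordycepin altered the RNA levels of the elongation control genes in serum-treated cells. Hexim1 RNA was higher, and those of Ccnt2 and Ell2 were lower. None of the 11 probes changed 2-fold or more, which 10.5% of all tested probes did with an adjusted p under 0.05 (7.63% higher and 2.87% lower). In the same limma fit, 5 of the 11 had an unadjusted p under 0.05. The share of all tested probes at that level was not counted, so nothing is read from this number. Without a minimum fold, 3 of 11 passed (27.3%), against 19.4% of all tested probes. Of these, 1 was higher and 2 were lower, against 12% and 7.36% of all. The median change over the 11 probes was -0.019 on the log2 scale, and that over all tested probes was 0.099. The 3 cordycepin arrays did not overlap the 3 serum arrays in 7 of 11 probes, and in 39.9% of all tested probes.

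**Figure D1:**
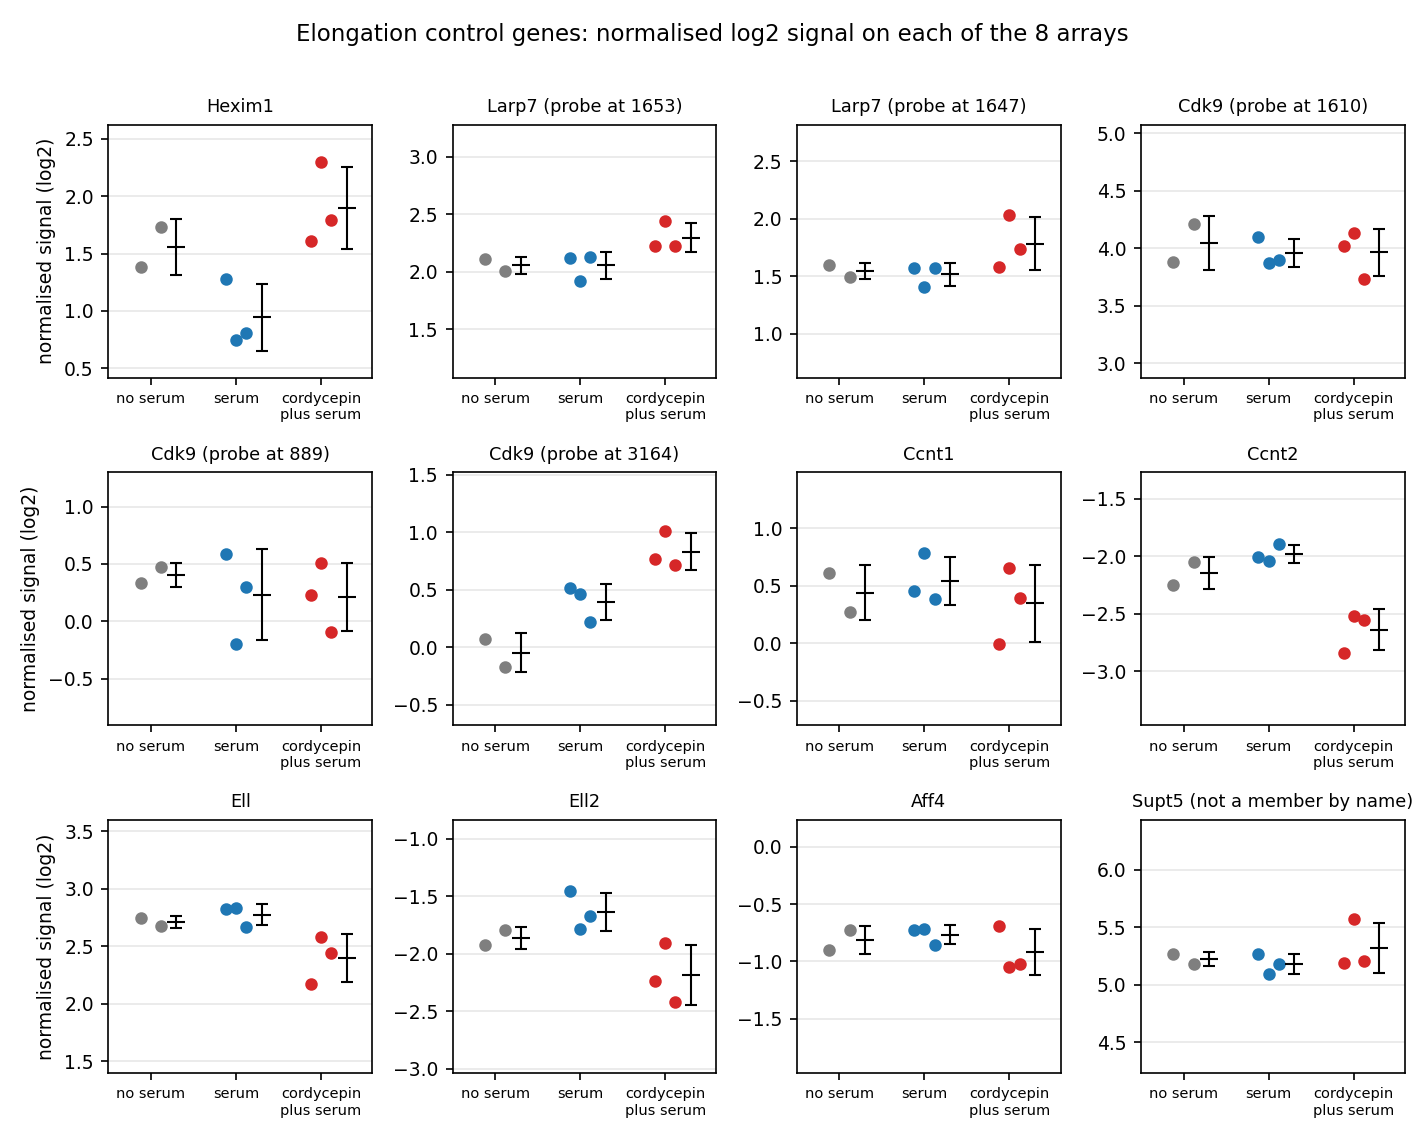
Normalised log2 signal (vertical axis, every panel spanning the same number of log2 units) for the 11 member probes and Supt5 in each group. Points are arrays, bars are the mean and SD, and numbers in brackets are the position of the probe in the transcript. Hexim1 is lowest in the serum arrays (0.74 to 1.27), while Ccnt2 is lowest in the cordycepin arrays (-2.85 to -2.52).

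The promoters of the 3 genes past the threshold are shown first, so that the sequence around each start site can be read beside its values. They are RefSeq windows of build GRCm38.p6, from 250 bases before to 50 bases after the start site, written 5′ to 3′ on the strand of the gene, which is the forward strand in each case. Capitals mark matches to the motifs searched, described further below. Hexim1 lies at chr11:103116075-103116374, Ccnt2 at chr1:127773914-127774213 and Ell2 at chr13:75707234-75707533.
Hexim1: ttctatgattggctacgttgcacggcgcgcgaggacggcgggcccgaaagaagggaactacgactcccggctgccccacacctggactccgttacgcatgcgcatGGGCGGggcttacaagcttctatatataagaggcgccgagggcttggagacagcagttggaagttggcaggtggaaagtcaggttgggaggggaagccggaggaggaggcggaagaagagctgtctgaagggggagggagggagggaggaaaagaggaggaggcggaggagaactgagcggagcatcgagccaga
Ccnt2: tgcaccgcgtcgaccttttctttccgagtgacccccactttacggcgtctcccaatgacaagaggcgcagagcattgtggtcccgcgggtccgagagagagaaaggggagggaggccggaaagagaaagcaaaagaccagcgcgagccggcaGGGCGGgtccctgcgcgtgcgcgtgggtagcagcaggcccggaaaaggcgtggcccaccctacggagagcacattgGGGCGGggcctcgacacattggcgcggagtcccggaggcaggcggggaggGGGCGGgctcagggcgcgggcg
Ell2: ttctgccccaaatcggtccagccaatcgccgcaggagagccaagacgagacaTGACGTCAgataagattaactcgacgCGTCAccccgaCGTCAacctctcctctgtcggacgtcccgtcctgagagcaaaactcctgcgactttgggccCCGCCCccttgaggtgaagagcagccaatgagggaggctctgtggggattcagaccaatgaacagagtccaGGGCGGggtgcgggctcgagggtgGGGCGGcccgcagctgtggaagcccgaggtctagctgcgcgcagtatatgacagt

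Hexim1, the P-TEFb inhibitor, was measured by 1 probe (chromosome 11, 102980827 to 102980886, build mm9, forward strand, base 3188 of the transcript). Its normalised log2 signal was 1.61, 2.30 and 1.79 on the cordycepin plus serum arrays, 1.27, 0.74 and 0.81 on the serum arrays, and 1.39 and 1.73 on the no serum arrays. Every cordycepin array was thus above every serum array, and so was each no serum array, whereas the cordycepin and no serum arrays overlapped. Hexim1 rose by 0.95 ± 0.22 (SE, adjusted p 0.0178) with cordycepin, or 1.94-fold, with a 95% interval of 0.45 to 1.46. At the 91.6th percentile of all changes, it was the most increased of the 11 probes. In cells not given cordycepin, serum changed Hexim1 by -0.62 ± 0.25 (adjusted p 0.415), and cordycepin plus serum differed from no serum by 0.34 ± 0.25 (adjusted p 0.415). The order of the group means was therefore cordycepin plus serum, no serum and serum, and the difference passed the threshold only between the first and the last. The adjusted p rose to 0.0612 and 0.0597 when the second or the third serum array was left out, to 0.0583 when dim probes were kept in the test, and to 0.614 when arrays were centred on spike-in probes. The log2 fold change stayed between 0.75 and 1.12 under all of the alternatives run, and was at 2-fold or more without the first or the third cordycepin array or without the first serum array.

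Larp7, which binds and stabilises the 7SK RNA, was measured by 2 probes that share 54 bases of the transcript. The files place the brighter of these (base 1653) on chromosome X, 125323936 to 125323995, and the other (base 1647) on chromosome 3, 127243718 to 127243777, where RefSeq has the gene. Whether the former detects a further sequence on the X chromosome was not tested. The brighter probe gave 2.23, 2.44 and 2.23 with cordycepin, 2.12, 1.92 and 2.13 with serum, and 2.11 and 2.01 without serum. The other probe gave 1.58, 2.04 and 1.74 with cordycepin, 1.58, 1.40 and 1.57 with serum, and 1.60 and 1.50 without serum. The cordycepin arrays lay above the serum arrays on both probes, by a narrow margin on the second, and the differences did not pass the threshold, at 0.24 ± 0.12 (adjusted p 0.197) for the brighter probe and 0.27 ± 0.14 (adjusted p 0.223) for the other. The 95% intervals were -0.027 to 0.51 and -0.050 to 0.59.

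Cdk9, the kinase of P-TEFb, was measured by 3 probes on the reverse strand of chromosome 2. The brightest (32563021 to 32563080, base 1610) gave 4.02, 4.14 and 3.73 with cordycepin, 4.10, 3.87 and 3.90 with serum, and 3.88 and 4.21 without serum. Its arrays overlapped between all groups, and the change with cordycepin was 0.0076 ± 0.15 (adjusted p 0.98, 95% interval -0.34 to 0.35). The probe at base 889 changed by -0.019 ± 0.22 (adjusted p 0.965). The probe furthest towards the 3′ end (32561467 to 32561526, base 3164) gave 0.77, 1.01 and 0.71 with cordycepin, 0.51, 0.46 and 0.22 with serum, and 0.073 and -0.17 without serum. The groups did not overlap on this probe, and its values were lowest without serum and highest with cordycepin. With cordycepin it differed from serum by 0.43 ± 0.14 (adjusted p 0.0647). Whether the 3′ probe changed by another amount than the brightest probe was tested on the difference between them. That difference was 0.43 ± 0.16 (adjusted p 0.189) for cordycepin against serum, where 9.29% of 5177 pairs of probes of the same gene differed.

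Ccnt1 and Ccnt2 encode the alternative cyclins of P-TEFb. Ccnt2 (chromosome 1, 129700618 to 129700677, forward strand, base 2717) gave -2.85, -2.52 and -2.55 with cordycepin, -2.00, -2.04 and -1.90 with serum, and -2.25 and -2.05 without serum. All 3 cordycepin arrays were below all of the others. Ccnt2 fell by 0.66 with cordycepin, or 1.58-fold (SE 0.13, adjusted p 0.00758, 95% interval -0.95 to -0.37). The adjusted p remained at or below 0.0334 when any single array was left out. With normexp background correction the change was -0.34 (adjusted p 0.0686), and with centring on spike-in probes it was -0.71 (adjusted p 0.965). Ccnt1 (chromosome 15, 98373717 to 98373776, reverse strand, base 2040) gave -0.0062, 0.66 and 0.40 with cordycepin, 0.46, 0.78 and 0.39 with serum, and 0.61 and 0.27 without serum. These overlapped in all groups, and the change with cordycepin was -0.19 ± 0.20 (adjusted p 0.539, 95% interval -0.65 to 0.26).

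Among the members of the super elongation complex, Ell2 fell, while Ell and Aff4 did not pass the threshold. Ell and Ell2 are related factors that suppress transient pausing of the polymerase along the gene. Ell2 (chromosome 13, 75908979 to 75909038, forward strand, base 2821) gave -2.24, -1.90 and -2.42 with cordycepin, -1.46, -1.78 and -1.67 with serum, and -1.93 and -1.79 without serum. The cordycepin arrays were below the serum arrays but overlapped those without serum. Ell2 fell by 0.55 with cordycepin, or 1.46-fold (SE 0.16, adjusted p 0.0439, 95% interval -0.91 to -0.19). This was close to the threshold, and the adjusted p stayed under 0.05 in 5 of 17 alternatives, with a range of 0.0187 to 1.00. It was lost when any of the 8 arrays but the second cordycepin array was left out. With normexp correction the change was -0.29.

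Ell (chromosome 8, 73116563 to 73116622, forward strand, base 2890) gave 2.17, 2.58 and 2.44 with cordycepin, 2.82, 2.83 and 2.67 with serum, and 2.75 and 2.67 without serum. All cordycepin arrays were below the others, with a difference from serum of -0.38 ± 0.13 (adjusted p 0.0863, 95% interval -0.68 to -0.075). Aff4 (chromosome 11, 53234558 to 53234617, forward strand, base 9390) gave -0.69, -1.05 and -1.02 with cordycepin, -0.73, -0.72 and -0.86 with serum, and -0.90 and -0.73 without serum. Its groups overlapped, and the difference was -0.15 ± 0.13 (adjusted p 0.459, 95% interval -0.45 to 0.15). Supt5, a subunit of the DSIF complex that holds the paused polymerase and later travels with it, gave 5.19, 5.57 and 5.20 with cordycepin and 5.27, 5.10 and 5.18 with serum, a difference of 0.14 ± 0.13 (adjusted p 0.507). In these RNAs of whole cultures, fewer cells making an RNA and less RNA per cell cannot be told apart.

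**Figure D2:**
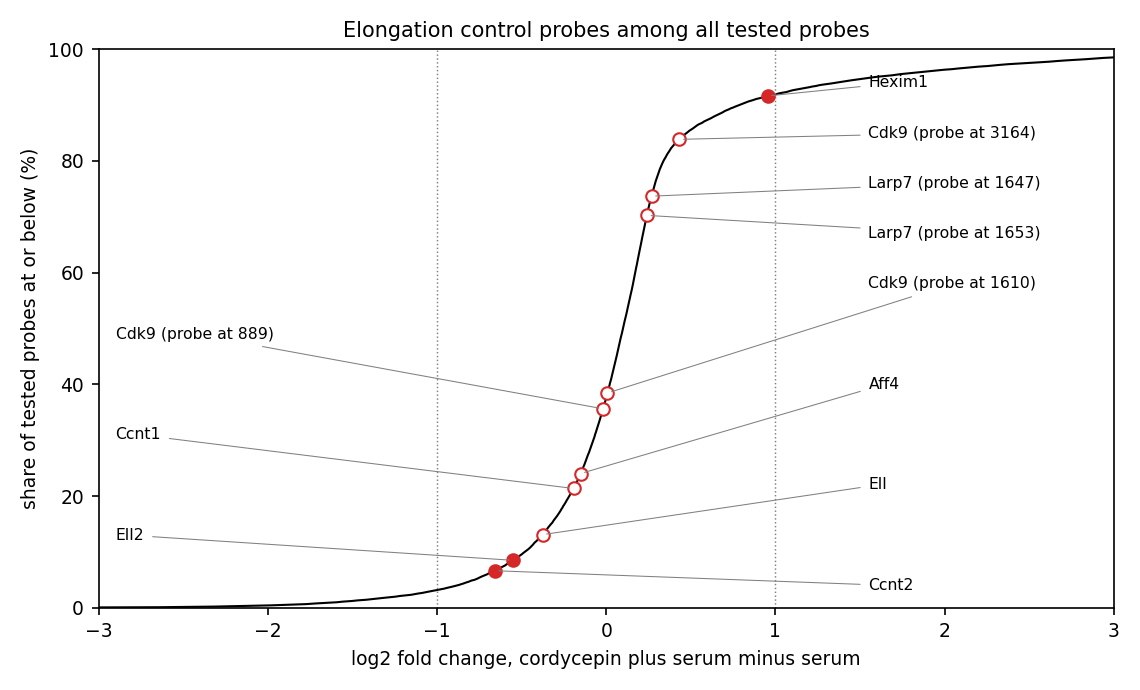
Cumulative distribution of the log2 fold change between cordycepin plus serum and serum over 30859 tested probes (black line; changes beyond 3 log2 units are not drawn), with the 11 member probes placed on it. Filled points have an adjusted p under 0.05, and dotted lines mark a 2-fold change. The members run from Ccnt2 at the 6.64th percentile to Hexim1 at the 91.6th.

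The effect of serum alone was compared next, with the same 3 serum arrays as above, so a deviation of these arrays enters both comparisons with opposite sign. None of the 11 probes changed, either with a 2-fold minimum (1.73% of all tested probes) or at an adjusted p under 0.05 alone (2.27%). At an unadjusted p under 0.05 in limma (share of all not counted) there were 2, Hexim1 and the 3′ probe of Cdk9. Hexim1 was lower with serum and this Cdk9 probe was higher, by 0.44 ± 0.15 (adjusted p 0.293). The other 9 probes lay between -0.17 and 0.22. The groups did not overlap in 4 of 11 probes, against 23.3% of all tested probes. With 2 arrays without serum, the 95% intervals were wide, reaching from -1.18 to -0.048 for Hexim1.

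Cordycepin plus serum was then compared with no serum, a comparison that shares arrays with both of the others. No member changed 2-fold (9.47% of all tested probes), and 2 had an unadjusted p under 0.05 in limma (share of all not counted). At an adjusted p under 0.05, 1 of 11 passed (15.1% of all, and 9.16% in the higher direction). This was the 3′ probe of Cdk9, which was higher by 0.88 ± 0.15, or 1.84-fold (adjusted p 0.00629, 95% interval 0.52 to 1.23). The other Cdk9 probes were at -0.083 ± 0.17 and -0.19 ± 0.25 (adjusted p 0.789 and 0.668). The 3′ probe differed from the brightest by 0.96 ± 0.18 (adjusted p 0.0233), while 6.08% of all pairs of probes differed. This test of the pair was added after the data were seen. The change of the 3′ probe missed the threshold without the second no serum array (0.76, adjusted p 0.0672) and with centring on spike-in probes (0.49, adjusted p 0.951). Ccnt2 differed from no serum by -0.49 ± 0.14 (adjusted p 0.0544). The groups did not overlap in 4 of 11 probes, against 45.3% of all.

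**Figure D3:**
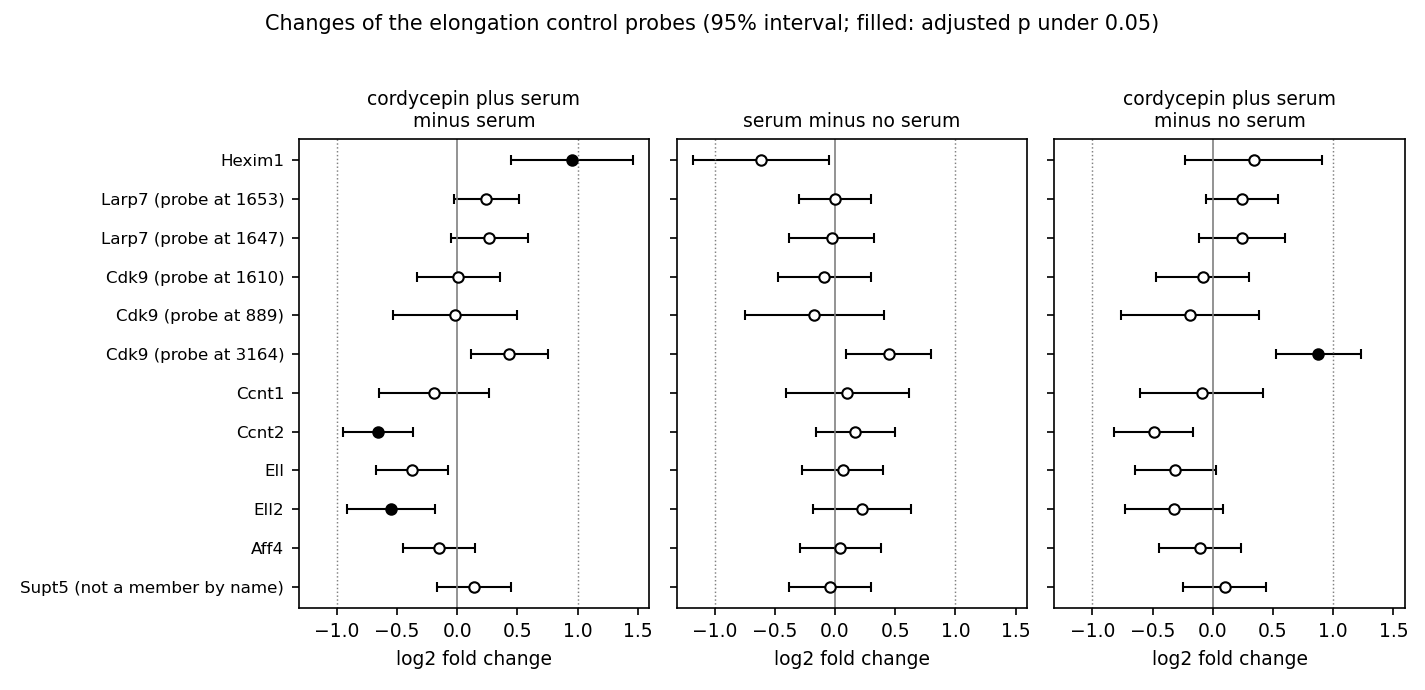
Log2 fold changes of the 11 member probes and Supt5 in the 3 comparisons (points) with their 95% intervals from limma (bars). Filled points have an adjusted p under 0.05, and dotted lines mark a 2-fold change. Hexim1, Ccnt2 and Ell2 pass in the comparison of cordycepin plus serum with serum, and the Cdk9 probe at base 3164 passes in the comparison with no serum.

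The other genes of the elongation machinery were set beside these, with the brightest probe of each gene. There were 44 such genes on the array, with Supt5 counted among them, and 43 were tested. Ell3, a relative of Ell, was left out because it was well above background on 2 cordycepin arrays only. With cordycepin, Ints6 rose 2-fold or more and Cdk12 fell by as much, or 1 of 43 in each direction, where 7.63% of all tested probes rose and 2.87% fell. Without a minimum fold, Leo1 was also lower and the brightest probe of Hexim2 was higher, while another Hexim2 probe was lower. On the brightest probes 4 of 43 genes thus passed (9.30%), against 19.4% of all tested probes. The median change of the 43 genes was 0.067, against 0.099 for all tested probes. None of the 43 passed an adjusted p of 0.05 with serum alone, which only 2.27% of all tested probes did.

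Cdk12, which phosphorylates the polymerase tail together with cyclin K, gave -1.54, -1.52 and -1.32 with cordycepin, -0.40, -0.09 and -0.28 with serum, and -0.53 and -0.41 without serum. The fall was 1.20 on the log2 scale (SE 0.12, adjusted p 0.000294), and the level with cordycepin was also below that without serum, by 0.99 (change -0.99 ± 0.14, adjusted p 0.00207). A further Cdk12 probe changed by -0.83 ± 0.18 (adjusted p 0.0131) and the remaining one by -0.35 ± 0.21 (adjusted p 0.298). Ints6, a subunit of the Integrator complex that cuts nascent RNA near promoters, gave a dim signal. It was at -3.34, -3.17 and -3.71 with cordycepin, -3.96, -4.89 and -5.28 with serum, and -4.80 and -3.87 without serum. Its rise was 1.30 ± 0.36 (adjusted p 0.041) against serum, and its difference from no serum was 0.93 ± 0.41 (adjusted p 0.189). Leo1, of the PAF complex, gave 0.095, 0.51 and 0.64 with cordycepin and 1.01, 0.99 and 0.96 with serum, a change of -0.57 ± 0.15 (adjusted p 0.0292). Nelfa, of the pause-holding NELF complex, differed only from no serum, with a change of -0.58 ± 0.14 (adjusted p 0.0245), and its change against serum was -0.40 ± 0.12 (adjusted p 0.0555).

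Hexim2, the paralogue of Hexim1 that lies next to it on chromosome 11, had 3 probes that disagreed. The brightest (base 1799) gave 4.99, 4.79 and 4.63 with cordycepin and 4.12, 3.98 and 4.25 with serum, and was higher by 0.68 ± 0.16 (adjusted p 0.0174). The probe at base 1151 changed by -0.64 ± 0.16 (adjusted p 0.0268), and that at base 1859 by -0.41 ± 0.23 (adjusted p 0.257). The difference of -1.32 ± 0.24 between the first 2 of these had an adjusted p of 0.0126, so no single direction can be given for Hexim2. In the 7SK complex as listed, Hexim1 and Hexim2 thus passed on their brightest probes, whereas Larp7 and the 7SK capping enzyme Mepce (-0.29 ± 0.11, adjusted p 0.114) did not. In the super elongation complex, 7 of 8 tested genes had negative values, against 37.6% of all tested probes, and the median was -0.27, against 0.099. Of the 8, Ell2 alone passed, where 7.36% of all tested probes were lower. This list holds 3 of the members, which were chosen with results known, so nothing particular to the complex is drawn from these counts.

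**Figure D4:**
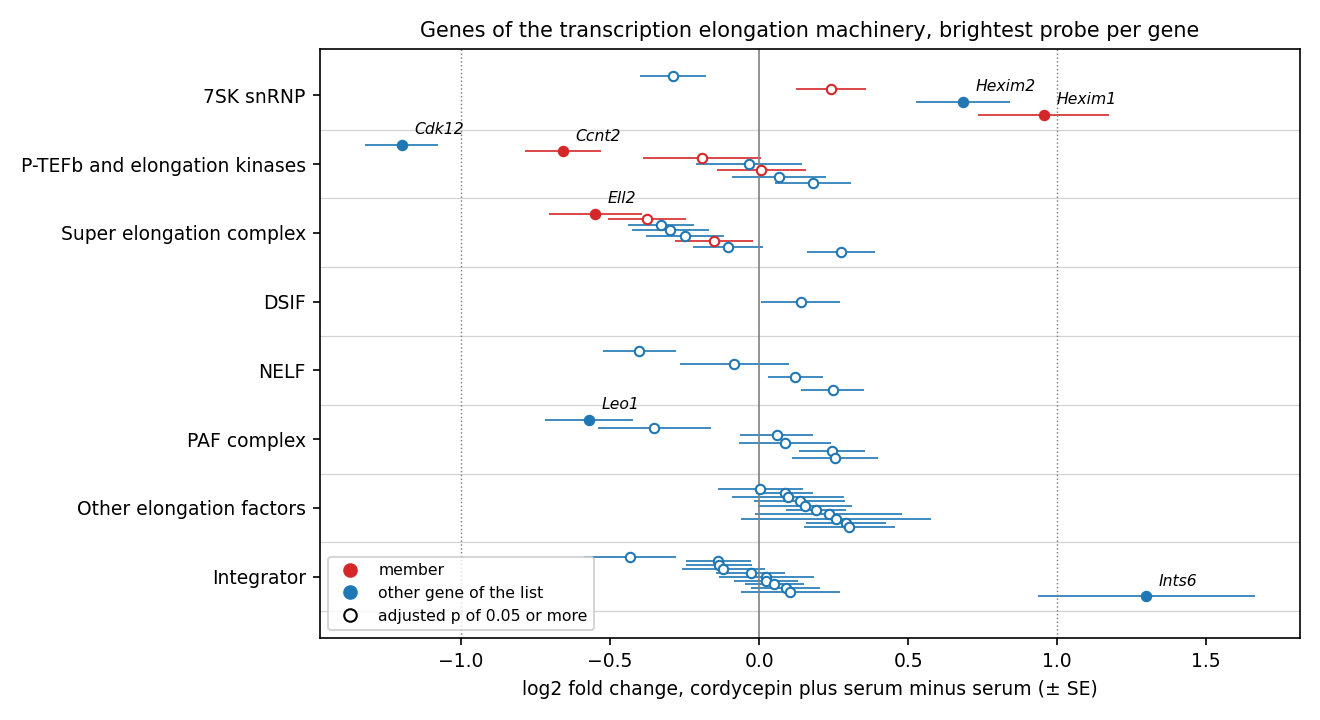
Log2 fold change between cordycepin plus serum and serum, with SE, for the brightest probe of each tested gene of the elongation machinery, grouped by complex. Red points are members and blue points are other genes, Supt5 among them, filled where the adjusted p is under 0.05. Cdk12 (-1.20) and Ints6 (1.30) lie beyond the dotted lines that mark a 2-fold change.

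Transcripts next to the members were examined in the same fit, taking probes of other names within 20 kb. There were 27 such probes, of which 16 were tested and 8 were higher by 2-fold or more with cordycepin, where 7.63% of all tested probes were. Of these, 7 lay on the reverse strand downstream of Hexim1, and the other was for Gdf9. All 7 tested probes on that strand, 5690 to 12003 bases beyond the Hexim1 probe, rose, by 1.23 to 1.74 (adjusted p 0.000854 to 0.0288). The strand split was chosen after the values were seen. For probes designed against intergenic regions, 18% of those tested rose. Normexp correction left 1 of the 7 past the threshold and centring on spike-in probes left 2.

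The nearest of the 7 is annotated as C130045F17Rik (102986517 to 102986576), an uncharacterised transcript. It gave -0.83, -1.11 and -1.03 with cordycepin, -2.72, -3.03 and -2.36 with serum, and -0.99 and -2.00 without serum. It was lowest in the serum arrays, as Hexim1 was, with a rise of 1.72 ± 0.27 with cordycepin (adjusted p 0.00268) and a change of -1.21 ± 0.30 with serum (adjusted p 0.107). The other 6 are probes for intergenic RNA between 102991910 and 102992889, some of them end to end, so they are not independent measurements. The brightest of these 6, at 102992650 to 102992709, gave -2.78, -3.20 and -2.55 with cordycepin, -4.06, -4.41 and -3.94 with serum, and -2.75 and -3.01 without serum.

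With serum alone, 3 of the 7 reverse-strand probes fell 2-fold or more, and the values ranged from -1.94 to -1.06 (adjusted p 0.025 to 0.185). For intergenic probes in general, 2.44% of those tested fell with serum. Leaving out single arrays left 0 to 3 of the 7 past the threshold, with 0 when either no serum array or the second serum array was left out. Normexp correction, and keeping dim probes in the test, also left 0. None of the 7 differed between cordycepin plus serum and no serum (lowest adjusted p 0.319, values -0.49 to 0.51). On the strand of Hexim1, 4 of 8 neighbouring probes were tested. The 2 probes of Acbd4, upstream, changed by 0.096 and 0.19, a downstream intergenic probe by 0.24, and the Hexim2 probe at base 1151 by -0.64. Of the 2 intergenic probes with fewest measurable serum arrays, 1 was well above background on 2 of 3 and 1 on 1 of 3.

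**Figure D5:**
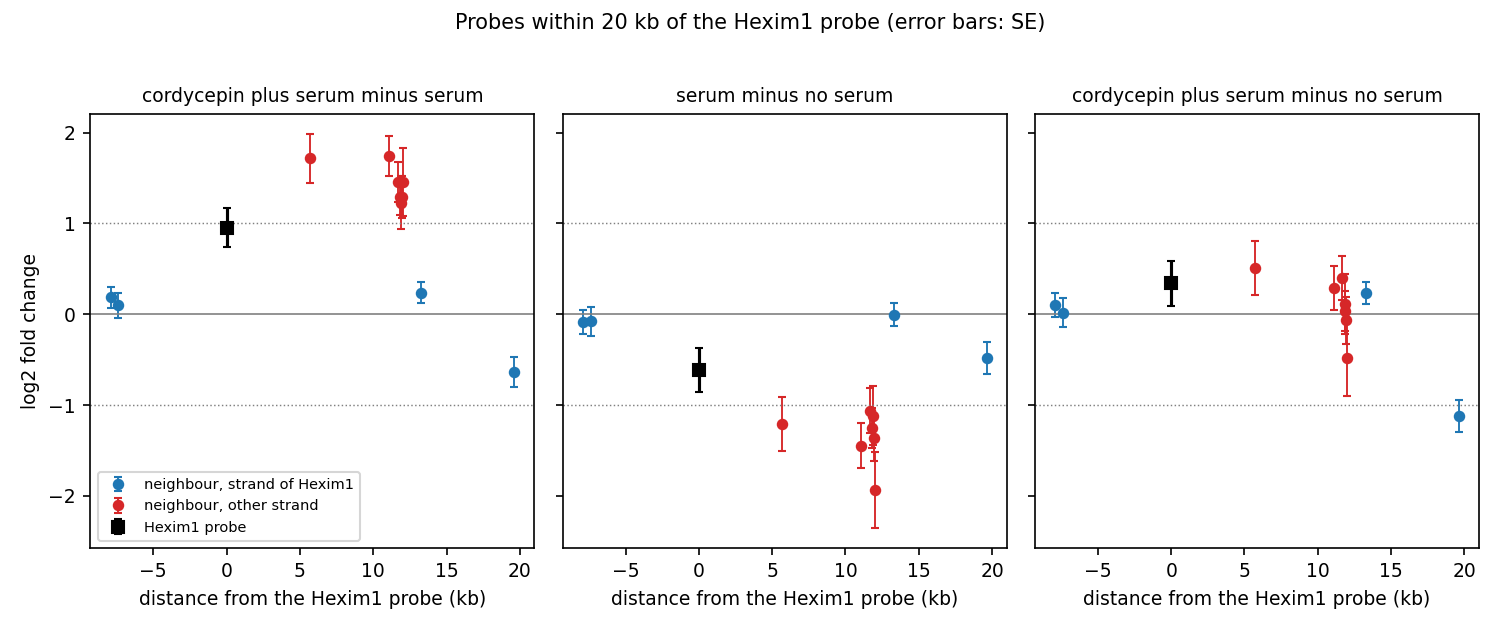
Log2 fold change with SE of the Hexim1 probe (black square) and of the tested probes within 20 kb, against their distance from it in kb (positive is downstream), for the 3 comparisons. Red points are on the strand opposite to Hexim1 and blue points on its strand. The 7 red points lie between 1.23 and 1.74 in the left panel and between -1.94 and -1.06 in the middle panel.

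Genes whose profile over the 8 arrays was closest to that of Hexim1 were ranked by the root mean square difference after each probe was centred on its own mean, over 13412 genes. The closest were Tbx6 (0.168), Foxl1 (0.194), Akap5 (0.198), Dclre1b (0.198) and Tmem177 (0.200), in log2 units. Pearson's r with Hexim1 over the 8 arrays was 0.939, 0.925, 0.912, 0.913 and 0.969, respectively. Tbx6 and Foxl1 encode developmental transcription factors and Akap5 a scaffold for protein kinase A. Their differences between cordycepin plus serum and serum were 0.99, 0.80, 0.82, 0.79 and 0.63, and are a description only, as the genes were picked for this profile. Dclre1b was well above background on 1 of 3 serum arrays and Akap5 on 2 of 3.

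Promoter windows were found for all 9 genes, with Supt5 standing for Supt5h. The letters searched, on both strands, were TATAAA for a TATA element, TGACGTCA (the cyclic AMP response element) and its core TGACG, the AP-1 site TGANTCA, the CArG box bound by serum response factor, CCGGAAGT (ETS) and GGGCGG (GC box). The GC box was present in 8 of 9 windows, all but that of Aff4, and in 35.7% of 32851 RefSeq windows. Hexim1 held a single GC box, at position -145 relative to the start site, and no other exact match. Variants of TATAAA, such as the letters tatataag in the Hexim1 window, were not searched. Ccnt2 held 3 GC boxes. Ell2 held 3 GC boxes and TGACGTCA at position -198, a motif that was present in 1.79% of all windows and otherwise only in Larp7 among the 9. The core TGACG, which is contained in TGACGTCA, was found in 5 of the 9 and in 20.8% of all. The ETS motif was found in Cdk9 and Ccnt1 (3.89% of all). The exact letters TATAAA, the AP-1 site and the CArG box were in none of the 9 windows, and in 13.6%, 7.81% and 1.63% of all. The 9 windows had a GC content between 61.0 and 79.0%, against a median of 52.7% for all. Of the motifs searched, the 3 genes past the threshold shared only the GC box, which most of the other members also held.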

How the data were processed

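The authors deposited each array as scanner output, with an intensity for every spot on a linear scale, extracted with Agilent Feature Extraction 10.7.3.1 per the file headers, which subtracts background and marks outlier and dim spots. Probe positions refer to build mm9, and which exon or UTR a probe lies in was not worked out. The study's methods name limma and no normalisation. Arrays have no read depth, and their number limits the precision.

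The log2 processed signal minus the 75th percentile of each array over non-control spots was used. Control and outlier spots were left out and spots of a probe averaged. A probe was tested where all arrays of 1 or more groups had it well above background. Groups were compared with limma 3.58.1 (R 4.3.3), fitting a mean for each group over all 8 arrays without covariates, two-sided, with Benjamini-Hochberg adjustment over 30859 probes. Changes called 2-fold had an adjusted p under 0.05 and an absolute log2 fold change of 1 or more. Probes of a gene were compared by the same test on their difference. The calculation was tested on simulated data. The 8 arrays shared a slide and a scan, so neither could be fitted as a batch. Blocks for slide row and for replicate number were each tried.

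All 9 members are named, each with all its probes. The brightest probe, by mean over the 8 arrays, represents other genes, and those passing a threshold are named. Hexim1 is set beside the 5 genes closest in profile. Members, lists of elongation complexes and markers were chosen with earlier results of these data known. Of the listed symbols, 12 were not in the array design under that name. Accessions of 13990 of 14092 RefSeq mRNAs matched a current symbol in a table of build GRCm38.p6, whose coordinates were used only for promoter windows. Alternatives covered background correction, normalisation, the filter, blocks, averaged probes, the call rule and leaving out each array. Of the listed markers, 1 is not reported here. A comparison of protein sequences was not run.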

Additional observations from a re-analysis of the deposited data

How the results depend on the processing

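Centring on spike-in probes took the median over all probes to -0.35 for serum against no serum and to -0.31 for cordycepin plus serum against no serum, and left 0 members past an adjusted p of 0.05 in each comparison. Hexim1 and the Larp7 probes at bases 1647 and 1653 then turned negative for cordycepin plus serum against no serum (-0.052, -0.15 and -0.15), and for serum against no serum so did Aff4 (-0.29), Ccnt1 (-0.23), Ccnt2 (-0.17), Ell (-0.27), Ell2 (-0.11) and Larp7 at base 1653 (-0.34). Of 11 member probes, 9 kept the sign of their change for cordycepin plus serum against serum under all alternatives, 6 for cordycepin plus serum against no serum, and 2 for serum against no serum, while 0 kept an adjusted p under 0.05 throughout. The cause was not tested.

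Member probes with an adjusted p under 0.05 for cordycepin plus serum against serum numbered 1 with normexp correction and 1 with no filter on dim probes, in place of 3, and 1 to 3 when single arrays were left out. For cordycepin plus serum against no serum they numbered 2 after quantile normalisation, in place of 1, and 0 to 1 when single arrays were left out. At 2-fold or more, 0 to 1 passed for cordycepin plus serum against serum when single arrays were left out. Over all tested probes, 3015 to 3331 then did. With no minimum fold 3 and 1 passed in these comparisons, against 19.4 and 15.1% of all tested probes. The share of all tested probes with an adjusted p under 0.05 was not counted under the alternatives. Nothing is therefore read from how the member counts moved with them.

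Values nearest 0 changed sign. The brightest Cdk9 probe (base 1610) for cordycepin plus serum against serum was at -0.029 with the slide row as a block, -0.047 with spike-in probes, -0.035 with normexp, -0.046 after quantile normalisation and -0.078 to 0.12 without single arrays. With the probes of Cdk9 averaged it was 0.20 for cordycepin plus serum against no serum and 0.061 for serum against no serum, and without single arrays it was -0.25 to 0.084 and -0.26 to 0.077. The Cdk9 probe at base 889 was at 0.013 with normexp and -0.23 to 0.16 without single arrays for cordycepin plus serum against serum, and -0.35 to 0.042 for serum against no serum. For serum against no serum, leaving out arrays gave -0.042 to 0.13 for Aff4, -0.068 to 0.27 for Ccnt1, -0.078 to 0.028 for Larp7 at base 1647 and -0.051 to 0.069 for Larp7 at base 1653. For Ccnt1 the range was -0.26 to 0.087 in cordycepin plus serum against no serum. Larp7 at base 1653 was also at -0.0076 with normexp, -0.014 with its probes averaged and -0.025 after quantile normalisation for serum against no serum.

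Over all probes, 3242, 533 and 2922 were called for cordycepin plus serum against serum, serum against no serum and cordycepin plus serum against no serum. Normexp gave 1321, 230 and 1401, spike-in centring 2005, 209 and 1440, and averaging the probes of a gene 1961, 354 and 1824. Probes above background on all arrays gave 1809 and 1686 in the first and last, and no minimum fold gave 5975 and 4663. Serum against no serum gave 221 with no filter, 346 with the 2 groups alone, 1003 at an unadjusted p of at most 0.05, and 265 to 689 without single arrays, the lowest without the second no serum array. Rises were 72.7, 49.2 and 68.4% of the calls. They were 59.7 and 58.1% in the first and last after quantile normalisation, 57.6% in the last with spike-in centring and 61.7% in the first with probes above background on all arrays. For serum against no serum they were 74.3% with normexp, 25.8% with spike-in centring, 60.2% with no filter, 63.0% with probes above background on all arrays and 29.8% without the first no serum array.

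Deviations of same-numbered arrays from their group means correlated at -0.17 to 0.23, and those of differently numbered arrays at -0.32 to 0.32. Whether replicate numbers pair the samples cannot be told from groups this small. With the replicate block, Ell2 was lost for cordycepin plus serum against serum (adjusted p 0.0734), so that 2 member probes passed in place of 3, and Larp7 at base 1653 went to -0.000125 for serum against no serum. The number of arrays, and dim signals for Ccnt2 and Ell2, limit what can be resolved, and a change common to nearly every RNA is removed by centring on each array's own signal.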

Other observations

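Gdf9, which encodes an oocyte growth factor, lies 16749 bases beyond the Aff4 probe on the same strand (chromosome 11, 53251307 to 53251366, build mm9). It gave 0.49, 0.29 and 0.040 with cordycepin, -1.46, -1.96 and -1.68 with serum, and -1.63 and -1.19 without serum. All cordycepin arrays were above all others, and the rise was 1.98 ± 0.19 against serum (limma, adjusted p 0.000196) and 1.68 against no serum (adjusted p 0.00117). Aff4 itself did not pass the threshold in either comparison. Uqcrq, a subunit of respiratory complex III on the opposite strand 7893 bases beyond the Aff4 probe, changed by 0.32 ± 0.13 (adjusted p 0.144).

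Ell3, the dim relative of Ell and Ell2, was at -4.45, -4.99 and -5.34 with cordycepin, at -6.55, -7.10 and -7.32 with serum and at -6.95 and -7.75 without serum. It was well above background on 2 cordycepin arrays and on 0 of the other groups' arrays, so it was not tested. The tested neighbours of Ell, Isyna1 and Ssbp4, changed by 0.25 and 0.17 with cordycepin (adjusted p 0.148 and 0.383).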
